A study of Arabidopsis thaliana with 18 samples.

Results

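Of the sites that BRIP2 occupied in Arabidopsis seedlings, 621 had their summit inside a protein-coding gene, away from any protein-coding gene start. They are described here by the part of the gene they fell in, the sequence under them and the presence of BRIP1. The members were taken by position alone: a BRIP2 peak on chromosomes 1 to 5 of replicate 1 that overlapped a replicate 2 peak by at least 1 bp, with its summit inside a protein-coding gene and more than 500 bp from every protein-coding gene start. Of 7877 nuclear peaks in replicate 1, 5483 overlapped a replicate 2 peak and 621 of these met the position rule. Without replicate 2, 975 peaks of replicate 1 met it, and without replicate 1, 696 peaks of replicate 2. The remaining 4862 reproducible sites comprised 2292 within 500 bp of a start and 2570 outside genes and farther than 500 bp from a start.

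The study profiled subunits of a chromatin remodelling complex by chromatin immunoprecipitation and sequencing (ChIP-seq) with an antibody to GFP (ab290). The libraries analysed here were BRIP2-GFP in *brm-1* and BRIP1-GFP in *brm-1*, each with 2 biological replicates from 14-day-old seedlings, and they are 4 of the 18 samples of the series. Every plant carried *brm-1*, a loss-of-function allele of *BRM*, and the genotype is given by the sample titles only. The sources used here do not give the promoter driving each fusion, and none of the titles names an anti-GFP library made from untagged plants, so signal that does not depend on the fusion cannot be told apart from BRIP2 or BRIP1 binding. The antibody field of BRIP1-GFP replicate 2 reads none, and that of the BRIP2-GFP input in *brm-1* names the GFP antibody, both against their titles. Whether that input was the control behind the BRIP2 folds is not stated.

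SWI/SNF complexes use the energy of ATP to slide or evict nucleosomes and so open DNA to other proteins. BRIP1 and BRIP2 are a homologous pair of subunits of the plant complexes built on the ATPase BRAHMA (BRM). In the compact Arabidopsis genome most regulatory DNA lies just upstream of genes, but introns and the sequence past the coding region can also be bound by transcription factors, a large intron of the floral regulator *AGAMOUS* being a textbook case.

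The sequence under the summits was examined first. Windows of 201 bp centred on each summit were searched on both strands for short motifs known as binding sites of plant transcription factors, and the same search was run on 245523 windows spaced every 200 bp over all gene-body sequence that could have held a member. The G-box CACGTG, the core site of many bHLH and bZIP factors, was present at 104 of 621 members (16.7%, 95% Wilson interval 14.0 to 19.9%), against 1.70% of gene-body windows. Of the 104 sites, 43 had a G-box centred within 25 bp of the summit and 25 held at least 2 copies. The next windows were taken from the RefSeq TAIR10.1 genome, written along the host gene, for the 5 best-ranked members with a G-box and for *BEE1*, whose G-box centre lay 2.5 bp from the summit. Members were ranked by fold in both BRIP2 libraries, and the capitals mark the G-box.
*AT4G36170*, coding exon, chr4:17119671-17119700, plus strand: acgaacttgaggCACGTGacgacatcagtg
*AT1G45688*, 3′ UTR, chr1:17192971-17193000, plus strand: tgttggggcagcCACGTGgaggtgcccgaa
*AT3G13800*, 3′ UTR, chr3:4541704-4541733, plus strand: attatctcatgaCACGTGtctctgtcggtc
*AT1G04000*, coding exon, chr1:1028379-1028408, minus strand: taatccggtgtcCACGTGgagacagatcat
*CKX5*, intron, chr1:28315880-28315909, minus strand: aaaaaaactagaCACGTGgtacatgggatt
*BEE1*, coding exon, chr1:6333488-6333517, plus strand: agagagcaaaggCACGTGagacagtggaga

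*CKX5* encodes a cytokinin oxidase, which degrades the hormone cytokinin, and *BEE1* a bHLH factor of the early brassinosteroid response. The density of G-boxes was highest at the summit. It was 1.51 matches per kb within 25 bp of the summit, 0.757 per kb from 50 to 100 bp and 0.270 per kb from 250 to 500 bp, against 0.0915 per kb over gene-body sequence. The G-box was found in all 4 parts of the gene, at 24.0% of coding exon members against 2.02% of coding exon windows, 18.6% of intron members against 1.22% of intron windows, 13.3% of 3′ UTR members against 1.51%, and 11.4% of 5′ UTR members against 1.47%. The members did not stand apart from other BRIP2 sites in this respect, since 18.3% of the reproducible sites within 500 bp of a start and 18.5% of those outside genes held a G-box.

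The motif GGNCCC, bound by TCP factors, was found at 113 members (18.2%, 15.4 to 21.4%) and in 4.85% of gene-body windows. Among the other reproducible BRIP2 sites it was found at 18.5% of those within 500 bp of a start and 23.0% of those outside genes. A match can share bases with TGGGCC, the site II element, which was present at 4.67% of members and in 2.05% of gene-body windows, and at 9.12% and 8.60% of the same other sites. The 4 best-ranked members with GGNCCC include *TCP9* itself, which encodes a class I TCP factor. Their windows are given on the strand of the match, with the motif in capitals.
*TCP9*, 3′ UTR, chr2:18820499-18820528, minus strand: caggttgggtgtGGTCCCcaaatggttaga
*WRKY7*, 3′ UTR, chr4:12573498-12573527, plus strand: caacgacagagtGGGCCCgcactgcacttt
*LRX3*, 3′ UTR, chr4:7761264-7761293, minus strand: aaaacttactttGGACCCaaatcttacttc
*AT1G22330*, intron, chr1:7888988-7889017, minus strand: taaatagagagtGGTCCCttgtgagttgtg

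The match at *TCP9* was centred 3.5 bp from the summit and that at *LRX3* 22.5 bp from it. GGNCCC was found at 25.1% (20.7 to 30.1%) of the 323 members with a peak in both BRIP1 libraries and at 10.1% (6.14 to 16.3%) of the 138 members with a peak in neither. The G-box showed no such split, at 15.8% and 16.7% of the same members. Members with BRIP1 peaks also had higher BRIP2 fold, and the part of fold in the GGNCCC difference was not tested.

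The motif CCGAC, the core of the dehydration-responsive element (DRE) bound by DREB-type factors, was found at 20.9% of members and in 9.03% of gene-body windows, with 16.4% of sites within 500 bp of a start and 14.2% of those outside genes. In coding exon members the share was 38.8% (30.6 to 47.7%) against 11.3% of coding exon windows, and that of the GCC-box GCCGCC, bound by ethylene response factors, was 14.9% (9.62 to 22.3%) against 3.12%. Coding exon members were also richer in G and C, with a median of 48.3% over the window against 41.3% in coding exon windows, and the part of base composition in these shares was not tested. In the other 3 parts of the gene, the median GC content of members and of windows lay between 33.3 and 35.8%. The next 3 windows, with CCGAC in capitals, come from *AT4G36170*, *AT1G75800*, which encodes a thaumatin family protein, and *CRF1*, a cytokinin response factor.
*AT4G36170*, coding exon, chr4:17119742-17119771, plus strand: cgtgacaaagaaCCGACcccacccaccaat
*AT1G75800*, coding exon, chr1:28460413-28460442, minus strand: agagccgccacatCCGACaaaaggccagcg
*CRF1*, coding exon, chr4:6794938-6794967, plus strand: ttaagacaggatCCGACccgaataaatccc

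The CCGAC matches of *AT1G75800* and *CRF1* were centred 5.0 and 7.0 bp from their summits. That of *AT4G36170* was 54 bp away, and that of *AT4G39830*, ranked above *CRF1* but not shown, 92 bp. Over all members the CCGAC density fell less with distance than that of the G-box. It was 1.39 matches per kb within 25 bp of the summit and 0.982 per kb from 250 to 500 bp, against 0.506 per kb over gene-body sequence. The W-box core TTGAC, bound by WRKY factors, was frequent everywhere, at 48.0% of members and in 34.2% of gene-body windows. CACATG, a variant E-box bound by phytochrome-interacting factors, was found at 19.8% of members against 8.84%. The evening element AAATATCT of circadian-regulated promoters was found at 4.99% of members against 1.83%, and 1 of its matches lay at the second-ranked member, in *IDD5*.
*IDD5*, 3′ UTR, chr2:509844-509873, plus strand: atctcctttctAAATATCTcgatacatgta

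The heat shock element TTCNNGAA went the other way, at 5.15% (3.67 to 7.18%) of members against 9.33% of gene-body windows, with 0.129 matches per kb within 25 bp of the summit. The other BRIP2 sites held it at a similar rate, at 5.85% of those within 500 bp of a start and 4.59% of those outside genes. The remaining motifs searched were closer to the windows. The general E-box CANNTG, which includes CACGTG and CACATG, was found at 64.1% of members against 57.8%, TATAAA at 26.4% against 18.1%, GAGAGA at 20.5% against 17.3%, GAAGAAGAA at 3.38% against 3.11% and the telobox AAACCCTA at 0.966% against 1.49%. Coding exons made up 19.5% of members but 55.0% of gene-body sequence. For motifs not given by part of the gene, what this adds to the contrast with gene-body windows was not tested. A match is a run of letters and no measure of binding by the factor named.

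**Figure D1:**
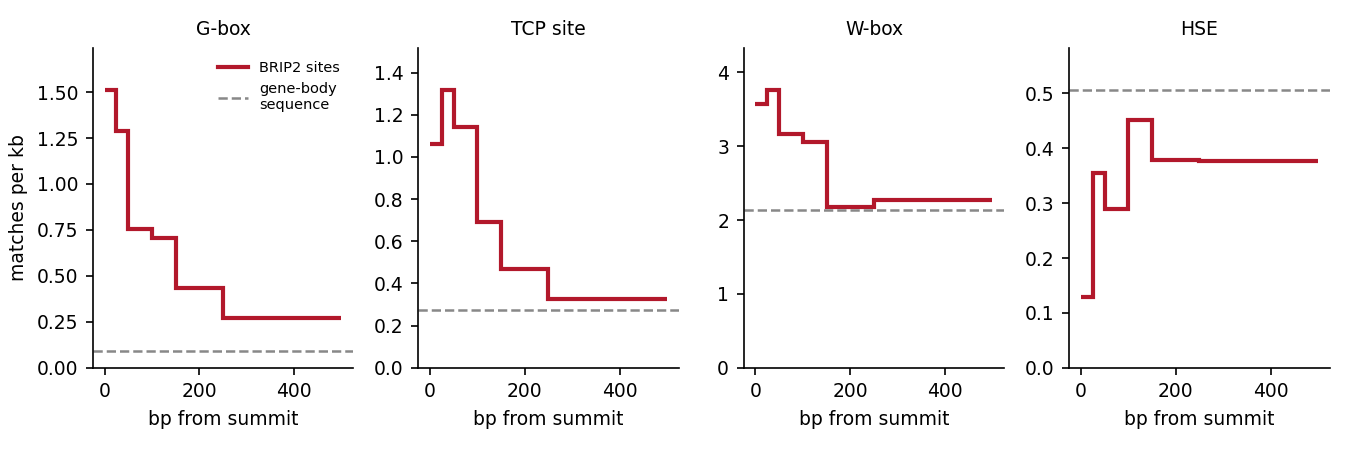
Matches per kb (y axis) of the G-box, the TCP site GGNCCC, the W-box core and the heat shock element (HSE) by distance in bp from the summits of the 621 gene-body BRIP2 sites (red), with the density over all gene-body sequence as a dashed line; the y axes differ. The G-box density was 1.51 per kb within 25 bp and 0.270 per kb from 250 to 500 bp, and the HSE density was lowest, 0.129 per kb, within 25 bp.

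Among the parts of a gene, the 3′ UTR held the most sites. It had 279 of the 621 summits (44.9%, 41.1 to 48.9%), introns had 177 (28.5%), coding exons 121 (19.5%) and the 5′ UTR 44 (7.09%), the coding exon class taking precedence where transcripts of a gene differed. Of the 49.1 Mb of gene-body sequence that could have held a member, coding exons made up 55.0%, introns 31.8%, the 3′ UTR 11.3% and the 5′ UTR 1.799%. The density was therefore 50.2 sites per Mb in the 3′ UTR (exact Poisson interval 44.5 to 56.4) and 49.8 in the 5′ UTR (36.2 to 66.9), against 11.3 in introns (9.72 to 13.1) and 4.48 in coding exons (3.71 to 5.35). Over all gene-body sequence it was 12.6 sites per Mb, against 89.7 within 500 bp of a start and 57.8 outside genes. Counting error alone is covered by these intervals and by the Wilson intervals of shares.

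**Figure D2:**
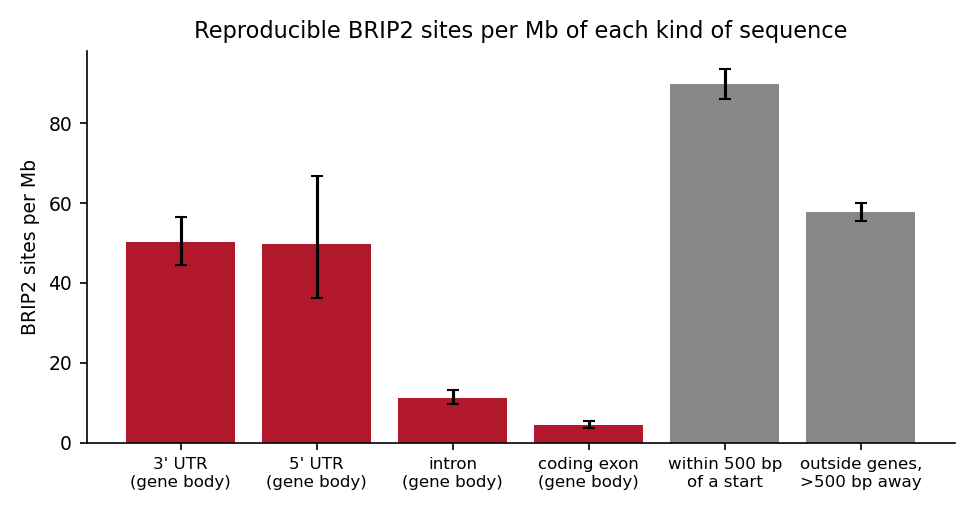
Reproducible BRIP2 sites per Mb of sequence, for the 4 parts of gene bodies (red) and, in grey, for sequence within 500 bp of a start and sequence outside genes; error bars are exact Poisson 95% intervals. The 3′ UTR and 5′ UTR stood near 50 sites per Mb, introns at 11.3 and coding exons at 4.48, below the 89.7 near starts.

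The calls of position were mostly stable between the replicates. The replicate 2 summit lay within 100 bp of the replicate 1 summit at 433 members, with a median shift of 54 bp, and met the same position rule at 550. It fell in the same class at 504 members and outside any protein-coding gene at 52. Coding exon members kept their class least often, at 85 of 121, and 5′ UTR members most often, at 43 of 44. On either side of the distance threshold the sites were alike: the 30 members 501 to 600 bp from a start had a median replicate 1 fold of 2.70 (1.79 to 3.88), and the 33 gene-body sites 401 to 500 bp from a start had 2.61 (1.86 to 4.45).

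Along the host gene, the members crowded toward the 3′ end. The final 10% of the gene length held 174 members (28.0%) against 10.1% of gene-body windows, and 164 members (26.4%) lay within 200 bp of the 3′ end against 7.85% of windows. Within the 3′ UTR itself there was little further bias, since 57.7% (51.8 to 63.4%) of the 3′ UTR members and 54.9% of 3′ UTR windows lay that close to the end. The median 3′ UTR member sat 298 bp past the stop codon and 171 bp before the gene end.

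**Figure D3:**
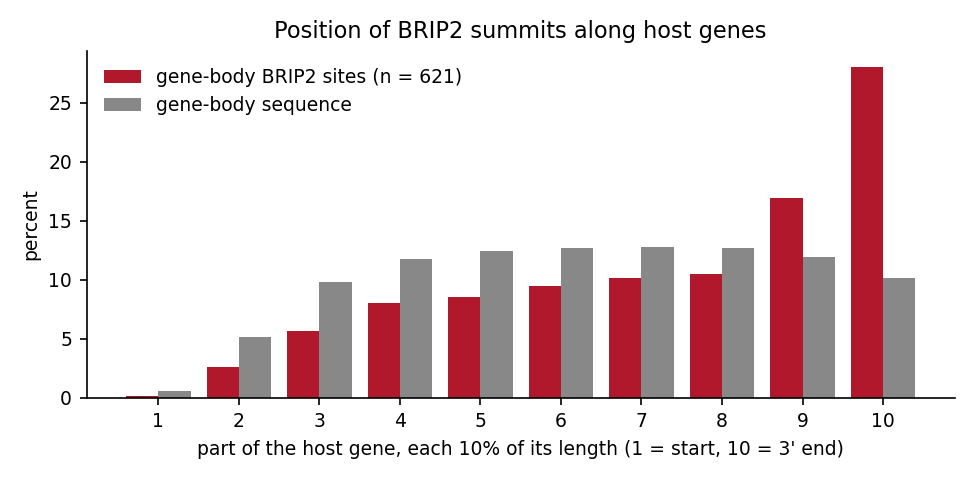
Share in percent (y axis) of the 621 gene-body BRIP2 summits (red) and of windows over all gene-body sequence (grey) in each of 10 equal parts of the host gene, from the start (1) to the 3′ end (10). Part 10 held 28.0% of summits and 10.1% of windows.

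A site near the end of one gene can lie upstream of the next. Of all members, 122 (19.6%, 16.7 to 23.0%) were more than 500 and up to 1500 bp upstream of the start of another protein-coding gene, and 19.4% of gene-body windows were too. In the 3′ UTR the shares were 27.6% of members and 26.7% of windows. Non-coding genes touched few sites, with 19 summits inside one and 32 within 500 bp of the start of one. *TCP9*, the best-ranked member, was one of them, as its summit at position 18820517 of chromosome 2 lay inside the long non-coding RNA gene *AT2G45685*, 252 bp from its start. Alternative starts mattered most in the 5′ UTR, where 16 of 44 members were within 500 bp of the start of another annotated mRNA of a gene, against 38 of all 621. For non-coding genes and alternative starts, the same shares of gene-body windows were not computed.

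The intron members lay in long introns. Introns of at least 1000 bp held 80 of 177 members (45.2%, 38.0 to 52.6%) against 6.20% of intron windows, and introns of at least 500 bp held 144 (81.4%) against 18.6%. The first intron held 69 members (39.0%) against 17.8% of intron windows. Most were introns between coding exons (152), with 15 in the 5′ UTR and 9 in the 3′ UTR. The best-ranked were in *AT1G75710*, which encodes a C2H2 zinc finger protein (intron 2, 846 bp), *AT5G21105*, an ascorbate oxidase (intron 4, 1895 bp), *AT1G79120*, a ubiquitin hydrolase family gene (intron 2, 2327 bp), *AT1G22330*, an RNA-binding protein gene (intron 5, 511 bp), and *GA2OX8*, which encodes an enzyme that inactivates gibberellin precursors (intron 1, 1629 bp).

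The coding exon members, in contrast, lay in short genes with few exons. Hosts with 1 exon held 51 of the 121 (42.1%, 33.7 to 51.1%) against 9.73% of coding exon windows, and hosts over 3000 bp long held 20 (16.5%) against 52.6%. Within 500 bp of the 3′ end lay 43.8% of the coding exon members, against 16.5% of windows. The hosts included single-exon genes of ethylene response factors, such as *ERF5*, *ERF6* and *CRF1*.

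The strongest gene-body sites were found with BRIP1 as well. Fold here is the authors' enrichment of a peak over its control at the summit, and it depends on the depth of each library. *TCP9* had a fold of 7.56 and 6.64 in the BRIP2 libraries and 6.37 and 6.66 in the BRIP1 libraries, a range shared by the proteins. *IDD5*, a zinc finger gene of the INDETERMINATE domain family, had 7.201 and 5.86 for BRIP2 and 5.70 and 7.11 for BRIP1. *WRKY7*, a WRKY factor gene, had 5.96 and 5.53 for BRIP2 and 5.82 and 6.14 for BRIP1. At all 3 the values of the proteins overlapped.

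*LRX3*, which encodes a leucine-rich repeat extensin of the cell wall, had 5.73 and 5.16 for BRIP2 and 3.79 and 4.22 for BRIP1. Its BRIP2 replicate 1 summit lay 61 bp before the gene end, and its BRIP2 replicate 2 summit fell outside any protein-coding gene. *AT1G78040*, of the Ole e 1 and extensin family, had 5.34 and 5.20 for BRIP2 and 3.45 and 3.39 for BRIP1, at a 5′ UTR summit 21 bp from another annotated mRNA start of its host. At these sites both BRIP2 values were above both BRIP1 values, an order that ranking by BRIP2 fold alone can favour. The other members among the 12 best-ranked (*AT1G75710*, *AT5G20110*, *AT5G21105*, *AT1G79120*, *AT1G36050*, *AT1G22330* and *AT4G36170*) had BRIP2 folds of 4.83 to 6.13. *AT4G36170*, uncharacterised, led the coding exon sites with 5.25 and 4.99 for BRIP2 and 4.80 and 4.91 for BRIP1.

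*AT1G04000*, also uncharacterised, followed in coding exons with 4.72 and 4.17 for BRIP2 and 3.29 and 3.23 for BRIP1. *BEE1* had 4.50 and 3.67 for BRIP2 and 3.23 and 3.71 for BRIP1, which overlap. *AT4G39830*, a cupredoxin family gene, had 3.71 and 4.21 for BRIP2 and 2.22 and 2.51 for BRIP1. *AT1G75800* had 4.27 and 4.04 for BRIP2 and 3.63 and 3.82 for BRIP1, and its replicate 2 summits for both proteins fell in the 3′ UTR. The peaks of *AT1G75800* (3106 bp wide) and *AT1G04000* reached the start of their host, as did 29 of all 621 members (4.67%). Coding exon sites were the weakest class, with a median BRIP2 fold of 2.51 and 2.40 in the replicates against 2.83 and 2.69 in the 3′ UTR, 2.74 and 2.72 in introns and 2.87 and 2.70 in the 5′ UTR, and only 3 of the 50 best-ranked members were in coding exons.

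**Figure D4:**
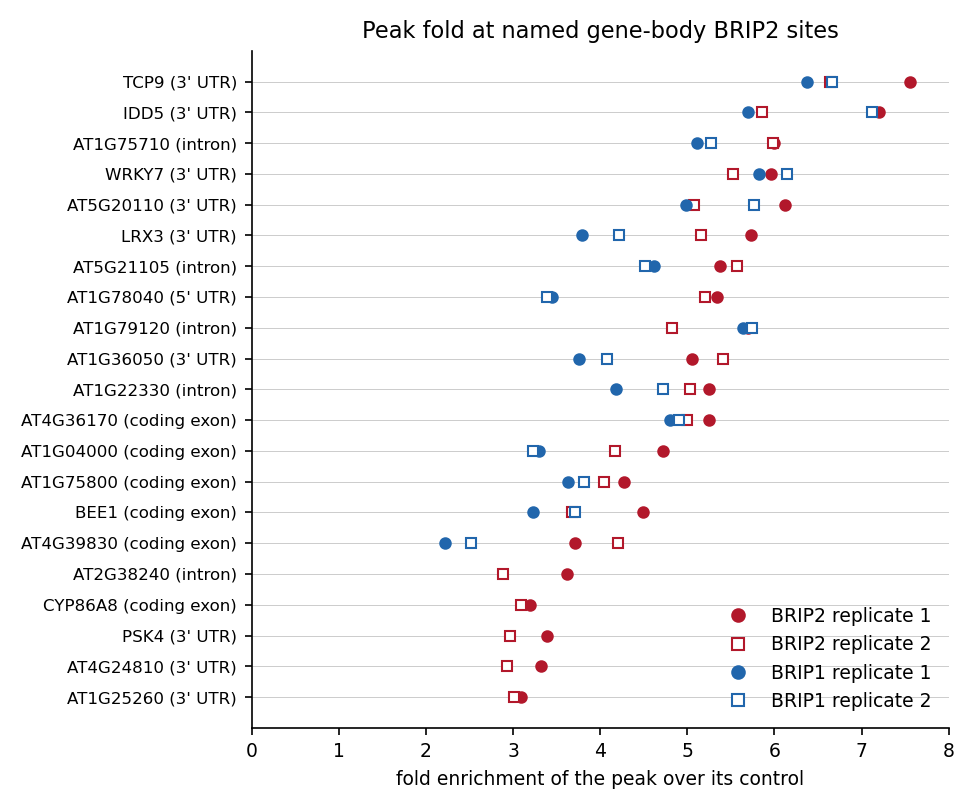
Fold of the peak over its control (x axis) in each library at the 12 best-ranked gene-body BRIP2 sites, the 5 best-ranked coding exon sites and the 5 best-ranked sites without a BRIP1 peak, ordered by rank from the top; red is BRIP2, blue BRIP1, filled circles replicate 1 and open squares replicate 2. The 5 sites at the foot, from *AT2G38240* down, have no BRIP1 point, and *TCP9* is highest, at 7.56 and 6.64 for BRIP2.

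Over all members the median fold was 2.76 in BRIP2 replicate 1 (1.09 to 7.56) and 2.66 in replicate 2 (1.71 to 6.64). The fold was slightly lower than at the other reproducible BRIP2 sites, whose medians were 2.85 and 2.73. In a linear regression across all reproducible sites (n = 5483) the difference was -0.07 ± 0.02 on the log2 scale in replicate 1 and -0.06 ± 0.01 in replicate 2 (estimate ± SE, adjusted p = 9.4e-05 in each). Against the sites within 500 bp of a start alone, the differences were -0.00031 (-0.034 to 0.033) and 0.0050 (-0.026 to 0.036), so the call did not hold there. It was also lost among peaks of fold 3 or more (-0.011 and -0.015) and with lists of equal length (-0.032 and -0.031). Sites, not libraries, are the unit of these fits, which cover the spread among sites within a library only.

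A BRIP1 peak was present at 343 of 621 members in replicate 1 (55.2%, 51.3 to 59.1%), with 57.2% over all reproducible BRIP2 sites, and at 463 members in replicate 2 (74.6%, 71.0 to 77.8%), with 76.5% over all sites. Both BRIP1 libraries had a peak at 323 members (52.0%), with 55.0% over all sites, and neither had one at 138 (22.2%), with 21.3% over all sites. The share with both was 92.9% among peaks of fold 3 or more in both BRIP2 libraries and 36.0% without BRIP2 replicate 2. The shares were thus near the background of all BRIP2 sites. In a logistic regression with the log2 fold and log2 width of the BRIP2 peak as covariates, the odds ratio of members against the other sites was 1.04 (0.840 to 1.29) for BRIP1 replicate 1 and 0.973 (0.771 to 1.23) for replicate 2, with an adjusted p of 0.82 for each. Against the sites within 500 bp of a start alone the odds ratios were 1.27 (1.01 to 1.60) and 1.29 (1.01 to 1.64), with an adjusted p of 0.042 for each. Sites are the unit of these logistic fits too, the same sites for both BRIP1 libraries, so the spread between libraries is not covered.

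BRIP1 overlap followed the strength of the BRIP2 peak. The sites were split into 4 equal classes by replicate 1 fold. In the lowest, 15.6% of 192 members and 17.7% of 1240 other sites had a peak in both BRIP1 libraries. The shares were 45.2% of members and 38.4% of other sites in the next, 70.6% and 70.2% in the one above, and 95.04% of 121 members and 94.94% of 1225 other sites in the highest. By class, both BRIP1 libraries had a peak at 60.5% (53.1 to 67.4%) of intron members, 53.4% of 3′ UTR members, 45.5% of 5′ UTR members and 38.8% (30.6 to 47.7%) of coding exon members, the class with the lowest fold. Where a BRIP1 peak was present its summit was close, within 100 bp at 252 of 343 members in BRIP1 replicate 1 and at 347 of 463 in replicate 2.

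**Figure D5:**
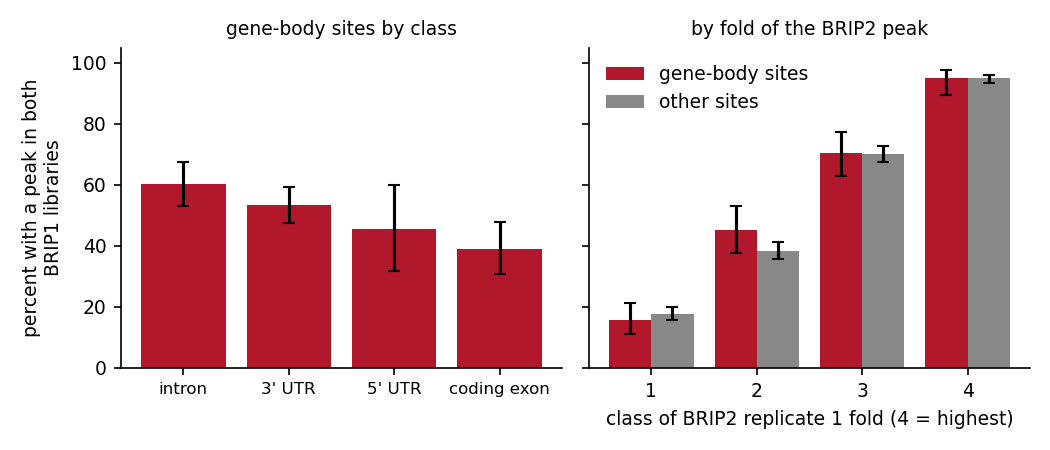
Percent of sites with a peak in both BRIP1 libraries (y axis), on the left for gene-body BRIP2 sites by part of the gene and on the right for gene-body sites (red) and other reproducible BRIP2 sites (grey) in 4 equal classes of BRIP2 replicate 1 fold (4 is the highest); error bars are Wilson 95% intervals. The share was 60.5% in introns and 38.8% in coding exons, and 15.6% of members against 17.7% of other sites in the lowest fold class.

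The members without BRIP1 were weak sites. Their BRIP2 replicate 1 fold ran from 1.64 to 3.68 with a median of 2.18, against a median of 3.19 at members with both BRIP1 peaks, and the best-ranked of them stood at rank 142. It lay in intron 1 of *AT2G38240*, a 2-oxoglutarate-dependent oxygenase gene, with BRIP2 folds of 3.62 and 2.89. The next were in *CYP86A8*, which encodes a fatty acid hydroxylase of cutin synthesis (3.19 and 3.09), *PSK4*, a phytosulfokine peptide precursor (3.39 and 2.97), *AT4G24810*, a protein kinase gene (3.32 and 2.93), and *AT1G25260*, a ribosomal protein L10 family gene (3.10 and 3.01). The absence of a peak depends on the depth and threshold of a library and is no measure of absent BRIP1.

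At the 323 members with a peak in all 4 libraries, the median fold was 3.19 and 3.01 in the BRIP2 libraries and 2.62 and 2.73 in the BRIP1 libraries. The libraries of the proteins did not overlap, with a mean difference of 0.431 (BRIP2 minus BRIP1), but 2 against 2 libraries cannot give an exact two-sided permutation p under 0.33, which was the p obtained, and fold is set by depth and control as well. At 197 of these members both BRIP2 folds were above both BRIP1 folds, at 13 both were below and at 113 the ranges overlapped. The members were chosen from BRIP2 peaks, which can favour BRIP2 in both comparisons. Over all nuclear peaks of each library, the median fold was 2.56 and 2.64 for BRIP2 and 2.59 and 2.44 for BRIP1. The part of this choice in the difference was not tested. The order of the members was similar in the libraries, with a Spearman rho of 0.779 between the BRIP2 replicates over 621 members, and of 0.654 to 0.705 between a BRIP2 and a BRIP1 library over the 323. Applied to every nuclear peak of a library, the position rule held for 12.4 and 11.1% of BRIP2 summits and for 11.5 and 11.5% of BRIP1 summits, a BRIP2 minus BRIP1 difference of 0.226 percentage points (exact two-sided permutation p = 1, smallest possible 0.33).

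The 621 members lay in 601 genes, 2.32% of the 25880 protein-coding genes with sequence that could have held one. Of genes of at least 2000 bp, 3.10% were hosts. Genes whose product is named as a transcription factor or DNA-binding family were hosts in 70 of 1548 cases (4.52%, 3.59 to 5.67%), with a median replicate 1 fold of 2.70 against 2.76 over all members. The IDD family had 3 hosts of 9, *IDD5* and *IDD12* together with *IDD4*, which had BRIP2 folds of 3.23 and 3.22 and BRIP1 folds of 3.17 and 3.34. Homeobox genes had 6 of 45, among them *HAT1*, *HB-2* and *HB4*, HD-Zip genes of the shade response. *HB4* had BRIP2 folds of 3.62 and 2.64 and BRIP1 folds of 3.08 and 3.25, and the other 5 had BRIP2 folds between 1.87 and 2.72.

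The ERF and CRF genes had 5 hosts of 36, of which *CRF1*, *CRF2*, *ERF5* and *ERF6* were bound in the coding exon and *ERF12* in the 3′ UTR. *CRF1* had BRIP2 folds of 3.62 and 3.57 and BRIP1 folds of 2.28 and 2.35. *ERF12* had the highest BRIP2 folds of the 5, 3.98 and 4.85. The median BRIP2 folds of the list were lower, at 2.38 in each replicate, against 2.76 and 2.66 over all members. WRKY genes had 3 hosts of 67 (4.48%: *WRKY7*, *WRKY17* and *WRKY69*), MYB genes 4 of 124 (3.23%) and NAC genes 2 of 80 (2.50%). Aux/IAA genes had 2 of 24 (8.33%: *IAA7* and *IAA16*), TCP genes 1 of 15 (6.67%) and LBD genes 1 of 31 (3.23%). The Wilson intervals of these shares, from WRKY to LBD, all reached the 2.32% of all genes that could have held a member.

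Transporter genes had 20 hosts of 685 (2.92%, 1.90 to 4.47%), near the 2.32% of all genes that could have held a member. The median replicate 1 fold of the list was 3.05. The hosts described next, the auxin carriers *PIN3*, *PIN4*, *PIN7* and *AUX1*, were not taken by rank. *PIN3* was bound in an intron, with BRIP2 folds of 3.55 and 3.59 and BRIP1 folds of 2.89 and 3.58, and the other 3 in the 3′ UTR. *PIN4* had BRIP2 folds of 3.29 and 3.22 and BRIP1 folds of 2.65 and 2.66. *PIN7* had 2.90 and 2.81 for BRIP2 and 2.71 and 3.04 for BRIP1, which overlap. *AUX1*, the influx carrier, was the weakest, with 2.25 and 2.35 for BRIP2 and a peak of 2.51 in BRIP1 replicate 2 alone.

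Kinase genes were hosts in 22 of 1378 cases (1.60%, 1.057 to 2.41%), RNA-binding or splicing genes in 11 of 319 (3.45%), ribosomal protein genes in 3 of 336 (0.893%) and uncharacterised genes in 52 of 2340 (2.22%). Genes with a cell wall product, a list added after the ranked hosts had been seen, were hosts in 36 of 613 cases (5.87%, 4.27 to 8.02%). Transferase genes had 32 of 1308 (2.45%) and RING, U-box or F-box genes 14 of 1109 (1.26%), both lists added at the same time. Of the light signalling genes 1 of 30 was a host, the blue light receptor gene *PHOT1*, in an intron, with BRIP2 folds of 3.58 and 3.18 and BRIP1 folds of 3.36 and 3.72.

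No gene-body site was found in 24 MADS-box flowering and floral organ genes, 13 SWI/SNF subunit genes, 12 *SPL* genes targeted by microRNA156 and 19 circadian clock genes. A count of 0 allows shares of up to 12.5, 23.1, 25 and 15.8% of these lists. These limits all lie above the 2.32% of all genes that could have held a member. The lists are thus too short for a count of 0 to differ from that share. The ARF and SPL genes told by symbol (20 and 16 genes) also had 0 hosts, and the same holds for them. A family told by symbol leaves out members with other names, so these counts do not cover whole families.

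In 20 hosts 2 members were found, with summits 768 to 4521 bp apart, and in 12 of these hosts the members were in different parts of the gene. In 3 of the 20, *BCA4*, *CYP86A8* and *TBL37*, both members overlapped one and the same replicate 2 peak, so they are not separate there. In *FAD3*, which encodes the omega-3 desaturase that makes linolenic acid, a 3′ UTR site had BRIP2 folds of 3.17 and 3.26 and an intron site 3.42 and 2.85. In *SMT1*, a sterol methyltransferase gene, an intron site had 3.29 and 3.01 and a 3′ UTR site 2.97 and 2.85. Both pairs were of similar strength.

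In *CYP86A8* both sites were in the single coding exon, with 3.19 in replicate 1 at one and 2.90 at the other, and a single replicate 2 peak with a fold of 3.09 overlapped both. *CYP86A8* was the 1 host of the 20 where neither site had a BRIP1 peak. *AT4G36170* paired its strong coding exon site with a weaker site in intron 2, at 2.89 and 2.25. The other hosts with 2 members were *ADT5*, *AT1G22330*, *AT1G27100*, *AT1G66880*, *AT1G78260*, *AT2G27080*, *AT3G07010*, *AT3G14870*, *AT5G02230*, *ATL6*, *BCA4*, *BXL2*, *HEXO3*, *LOG7*, *MUM2* and *TBL37*. Both members had a peak in both BRIP1 libraries in 8 of the 20. A further reproducible BRIP2 site within 500 bp of the host's own start was present for 102 of the 621 members (16.4%). The same share over all genes was not computed, so whether hosts differ from other genes is not known.

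One member differed from all others in its control. At *AT3G41762*, an uncharacterised gene on chromosome 3, the control at the summit was 6156 fragments and the pileup 6728 in BRIP2 replicate 1, where the background of the library was 29.7 fragments. Its BRIP2 fold was the lowest of all members in both libraries, at 1.09 and 1.71, with 1.81 and 1.67 for BRIP1. It was the 1 member whose control exceeded 2 times the background in a BRIP2 library, and the counts above include it.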

How the data were processed

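Members, gene lists, motifs and tests were chosen with earlier results of these data known. The deposited files are one MACS2 peak list per library, called by the authors library by library. Bowtie, MACS2 2.1.1, deepTools and TAIR10 are named in the processing notes of the submitters, and the sources used here do not say which control served each list. Each list gives the position and summit of a peak, its fold over control (a ratio), −log10 p-value and −log10 q-value, and a whole-number score left unused here, all as deposited by the authors. Depth per library is not listed. Since MACS2 derives fold and p from pileup and control, both were solved for and matched the deposited −log10 p within 0.02 for 99.8 to 100.0% of peaks. The control background was 29.7 and 23.2 fragments in the BRIP2 libraries and 31.5 and 41.2 in the BRIP1 libraries, and the nuclear lists held 7877, 6288, 3637 and 5343 peaks in the same order.

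Positions count from 1 and were read against the RefSeq annotation and genome of TAIR10.1, whose nuclear chromosomes contain every peak. A gene start is the 5′ end of the gene record. Classes were taken from the base at the summit (coding exon before 5′ UTR, 3′ UTR and intron). Windows for comparison were placed every 200 bp over gene-body sequence that met the rule. Where several peaks overlapped a member, the one with the highest fold was used. Logistic and linear regressions (statsmodels 0.14.6, HC3 standard errors in the linear fits) ran across all 5483 reproducible BRIP2 sites, with Benjamini-Hochberg adjustment over the 2 fits of each kind, and library values were compared by exact two-sided permutation. The position rule and the fits were tested on simulated data.

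Named were the 12 members ranked best by the mean of their ranks of fold in the 2 BRIP2 libraries, the 5 best in coding exons, introns and the 3′ UTR, the 5 best with both and with neither BRIP1 peak, hosts with 2 members and up to 4 hosts a list. *BEE1* and the other sequences shown, *AT3G41762*, *AT2G45685* and the fifth host of the homeobox and ERF lists were chosen after their values were seen. ARF and homeobox symbols shared with other families were left out by product name. The other 14 samples were not analysed here. The result of 1 gene list is not reported here.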

Additional observations from a re-analysis of the deposited data

Results flagged for a closer look

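Peaks on the plastid genome, which no comparison above uses, numbered 2 and 3 in the BRIP2 replicates. They numbered 6 in BRIP1 replicate 1 and 7 in BRIP1 replicate 2. Their source was not tested.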

How the results depend on the processing

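The number of gene-body sites was 279 with a −log10 q of at least 10 in both BRIP2 libraries, 154 with a fold of at least 3, 289 with lists of equal length, and 696 to 975 with a BRIP2 library left out, and was within 1.5 times 621 under the other alternatives. In the same order of the first 3 settings, coding exons held 13.3, 13.6 and 12.8% of sites, and they held 15.7% with BRIP2 summits within 150 bp and 20.0 to 23.1% with a BRIP2 library left out. The 3′ UTR share was 51.3% at a fold of at least 3 and 49.8% with equal lists. The 5′ UTR share was 5.19% at a fold of at least 3, 12.1 and 4.51% at distances of more than 300 and 1000 bp from a start, and 4.80% with every mRNA start.

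The share with both BRIP1 peaks was 81.4% at the q limit, 92.9% at a fold of at least 3 and 76.8% with equal lists. It was 56.6 and 37.5% at 50% reciprocal overlap of the BRIP2 replicates and with BRIP1, and 42.2% with BRIP1 summits within 150 bp. With BRIP2 replicate 1 or 2 left out it was 47.8 and 36.0%. With BRIP1 replicate 1 or 2 left out, a peak in the remaining BRIP1 library was present at 74.6 and 55.2% of members.

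The log2 odds ratio of BRIP1 replicate 1 overlap was -0.031 at the q limit, -0.039 at a fold of at least 3 and -0.13 without covariates, and 0.35 against sites near a start, the 1 setting that passed the threshold. That of replicate 2 was 0.29 at 50% reciprocal overlap of the BRIP2 replicates, 0.13 with BRIP2 summits within 150 bp, 0.030 with all gene starts, 0.012 with BRIP1 summits within 150 bp, 0.36 against sites near a start, and -0.10 to 0.0060 with a BRIP2 library left out. It was -0.53 at the q limit, -0.49 with equal lists and -0.35 at a fold of at least 3, none past the threshold.

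The log2 fold difference lost its call at a fold of at least 3 (-0.011 in BRIP2 replicate 1 and -0.015 in replicate 2) and with equal lists (-0.032 and -0.031), in replicate 2 also at 50% reciprocal overlap of the BRIP2 replicates (-0.031), and against sites near a start (-0.00031 and 0.0050), a setting chosen after the data had been seen. The cause was not tested. The difference in the share of summits in gene bodies was -0.605 with equal lists and -0.429 to 0.881 with a library left out. With the replicate number as a replicate block, it remained 0.226 (exact permutation p = 1) and the median fold difference remained 0.431 (p = 0.5, the smallest possible).

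Motif shares rose with the window: 10.8 and 21.6% of sites held a G-box, 9.34 and 23.3% GGNCCC, 28.5 and 62.0% a W-box and 12.1 and 27.5% CCGAC within 50 and 150 bp. Dropping the peaks whose control exceeded 2 times background, also added later, gave 620 sites and changed no call. Depth limits the absence of a peak, since each library was called on its own.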
